A study of Mus musculus with 9 samples.

Results

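The genes examined were Dpp4 and 6 related peptidases that act on proline-containing peptides, namely Fap, Dpp7, Dpp8, Dpp9, Prep and Prepl. They were chosen by name, as the rows of the deposited tables whose Ensembl identifier maps to these symbols, and all 7 were found among 20655 genes. The tables come from bulk RNA sequencing of stromal cells sorted by flow cytometry from the inguinal and axillary subcutaneous white fat of wild-type C57BL/6 mice at 12 days of age, with males and females mixed. The sort collected cells that carried DPP4, ICAM1 or CD142 on their surface, here called DPP4+, ICAM1+ and CD142+ cells, with 3 libraries of each and 9 in all. No treatment, transgene or deletion was involved, and the labels do not say if each library was made from different mice, so the p-values reflect only how far these libraries differed, part of which may be technical.

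Prolyl peptidases are serine proteases that cut next to proline, a bond that most other peptidases leave intact. DPP4 (also CD26) is a membrane enzyme that removes dipeptides from the start of incretins and chemokines, and it marks a population of interstitial progenitors in subcutaneous fat. FAP, its nearest relative, is a membrane enzyme of activated fibroblasts that also has endopeptidase activity and cleaves partly degraded collagen. DPP7 works in lysosomes and secretory vesicles, DPP8 and DPP9 in the cytosol, where they restrain the NLRP1 inflammasome, and PREP is a cytosolic oligopeptidase that cuts short peptides. PREPL resembles PREP in sequence and has been tied to vesicle traffic rather than to the cutting of proline bonds.

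Most of these enzymes share a short motif around the catalytic serine. In the longest complete coding sequence of each gene (GENCODE M21, GRCm38, the assembly also called mm10), the coding strand was searched for codons of glycine, any residue, serine, any residue, glycine and glycine, in that order. The motif occurred once in each of 6 of the 7 members, Prepl being the one with no match, and in 2.83% of the 21523 protein-coding genes searched. The windows below are from the 4 members that differed between populations in at least 1 comparison. They read 5′ to 3′ on the coding strand, and the capitals mark the 18 bases of the motif, with 24 bases on either side.
Dpp4: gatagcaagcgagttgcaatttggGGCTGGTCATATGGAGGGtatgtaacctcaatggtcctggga
Fap: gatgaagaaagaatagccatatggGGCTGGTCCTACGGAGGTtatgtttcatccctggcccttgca
Dpp7: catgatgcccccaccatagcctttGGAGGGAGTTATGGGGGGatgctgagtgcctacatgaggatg
Prep: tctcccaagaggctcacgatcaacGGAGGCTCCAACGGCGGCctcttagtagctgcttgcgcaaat

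The serine codon of Dpp4 lies at chr2:62347915-62347917 (exon 22 of 26) and that of Fap at chr2:62504603-62504605 (also exon 22 of 26), both on the minus strand and both codon 624 of the coding sequence. That of Prep lies at chr10:45153165-45153167 on the plus strand, in exon 13 of 15, and that of Dpp7 on chromosome 2 is split between exons 4 and 5 of 13. Translated over their whole length, the coding sequences of Dpp4 and Fap were identical at 52.7% of aligned positions and those of Dpp8 and Dpp9 at 59.9%. The remaining pairs of members lay between 20.5% for Dpp4 with Prepl and 29.6% for Dpp4 with Dpp8. No stretch of 75 bases was common to transcripts of different members. Read in either orientation, the only transcripts of other annotated genes that shared such stretches with a member came from Gm13561 for Dpp4 (2.52% of its stretches), Gga3 for Fap (0.0996%), Gm47350 for Dpp8 (1.16%) and Slc3a1 for Prepl (9.32%). Slc3a1 lies on the other strand from Prepl and covers 10.8% of its exon bases. How reads there were counted is not known, so the Prepl values may be affected in either direction.

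The deposited tables hold a mean over the 9 libraries and the fold changes between populations, each with its standard error (SE), but no value per library. A level is given here as the normalised read count in a population that the mean and the fold changes imply. These fitted levels have no error of their own, and no spread over libraries can be shown. Levels are set between genes only per kilobase of exon. A gene passed the test when its deposited adjusted p was below 0.05, and intervals are 95% intervals from the deposited SE. In bulk libraries, fewer cells of a type and less RNA per cell cannot be told apart. The transcripts of the sorted proteins followed the labels in part. Icam1, which encodes the adhesion molecule ICAM1, had fitted levels of 1162 in DPP4+, 7966 in ICAM1+ and 7058 in CD142+ cells, and F3, which encodes CD142 (tissue factor), of 243, 310 and 1469. All 8 stromal markers were abundant in the 3 populations but not even. In ICAM1+ against DPP4+ cells 2 were higher and 5 lower (all genes tested, 12.4% and 12.0%). In CD142+ against DPP4+ cells 2 were higher and 3 lower (all genes tested, 10.1% and 8.91%). Pdgfra was at 2849, 3664 and 4432, and the progenitor markers Cd34 (13820, 3154 and 5095), Ly6a (5933, 1533 and 2480) and Thy1 (4809, 2075 and 1948) were highest in DPP4+ cells.

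Markers of other cell types also differed between the populations. Over all genes tested, 12.4% passed as higher in ICAM1+ and 10.1% in CD142+ than in DPP4+ cells. Between ICAM1+ and CD142+ cells 3.77% passed as higher in the former. Of 6 markers of mural cells (pericytes and smooth muscle), 5 were higher in ICAM1+ and 4 in CD142+ than in DPP4+ cells. Their summed fitted levels were 1691 in DPP4+, 9594 in ICAM1+ and 4594 in CD142+ cells. Of 6 endothelial markers, 5 were higher in ICAM1+ than in each of the other populations, with sums of 2102, 3128 and 1941. All 4 Schwann cell markers and 4 of 5 adipocyte markers were higher in ICAM1+ than in DPP4+ cells. The sums were 867, 2073 and 802 for Schwann cells and 1015, 3225 and 1468 for adipocytes. Fabp4 alone made up most of the adipocyte sum (1004, 2965 and 1381). Plin1 (6.52, 152 and 44.6) and Adipoq (1.07, 95.2 and 35.1) were far lower. Epithelial markers summed to 24.3, 102 and 54.7 and mesothelial markers to 139, 40.1 and 72.1. Lymphocyte markers (58, 127 and 108 over 6 of 8 genes with a row) and myeloid markers (230, 324 and 201) stayed low. The mural, adipocyte, epithelial and lymphocyte sums rank the populations as the fitted levels of Fap and Icam1 do. Not every single marker does. The mural marker Cspg4 (216, 291 and 302), the epithelial marker Krt18 (6.95, 14.8 and 18) and the lymphocyte marker Cd3e (36.9, 70.3 and 78.1) were highest in CD142+ cells. The part of these cell types in the differences below was not tested.

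The 7 members split into a gene that followed the sort, 3 that differed modestly between DPP4+ cells and at least 1 other population, and 3 for which no difference passed the test. Between ICAM1+ and DPP4+ cells 4 of the 7 passed, 2 higher (Fap, Dpp7) and 2 lower (Dpp4, Prep) in ICAM1+ cells. Over all genes tested in that comparison 24.4% passed, 12.4% higher and 12.0% lower. Between CD142+ and DPP4+ cells 3 members passed, Dpp7 higher and Dpp4 and Prep lower in CD142+ cells, against a background of 19.0% (10.1% higher and 8.91% lower). Between ICAM1+ and CD142+ cells Dpp4 alone passed, lower in ICAM1+ cells, against 9.05% of all genes (3.77% higher and 5.28% lower). The median log2 fold change of the 7 members in the 3 comparisons was 0.08, -0.02 and 0.02, beside 0.02, -0.01 and -0.00 over all genes tested. The first 2 comparisons share the DPP4+ libraries, so passes of 1 member in both are not independent.

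**Figure D1:**
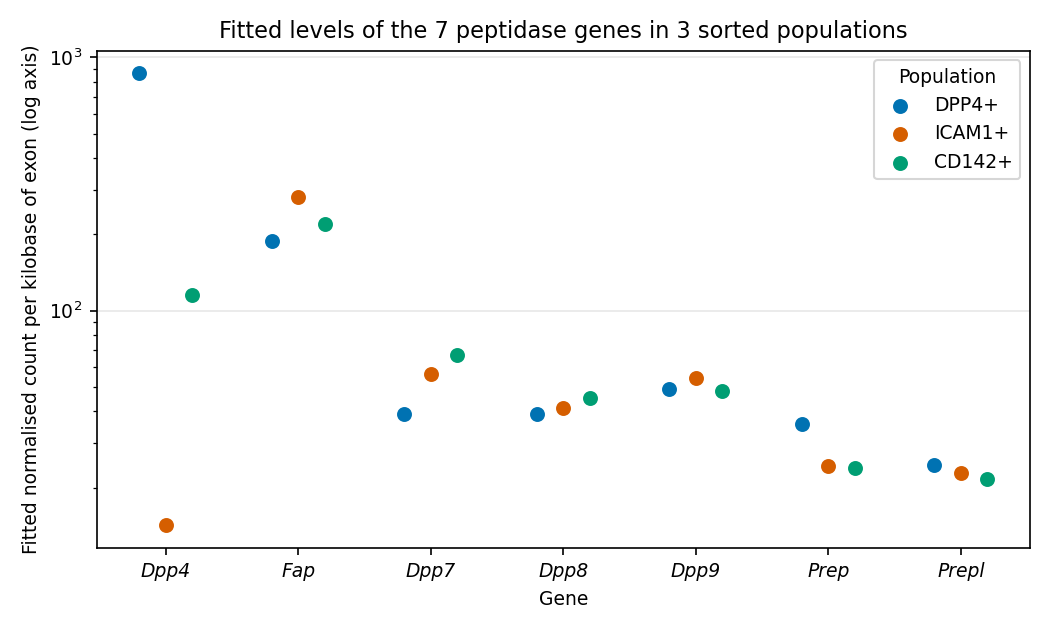
Fitted normalised counts per kilobase of exon (log axis) of the 7 genes in DPP4+, ICAM1+ and CD142+ cells, 1 point per gene and population with no error available. Dpp4 falls from 865 in DPP4+ to 14.2 in ICAM1+ cells, while none of the other 6 genes spans more than the 1.7-fold range of Dpp7.

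Dpp4 (chr2:62330073-62412231, minus strand) is the gene of a sorted protein, so its transcript checks the labels and is no finding. Its fitted level was 5466 in DPP4+, 89.9 in ICAM1+ and 729 in CD142+ cells. The log2 fold change was -5.93 ± 0.15 (SE) in ICAM1+ against DPP4+ cells, where the deposited adjusted p was 0, below what the table can hold. It was -2.91 ± 0.13 in CD142+ against DPP4+ cells, with an adjusted p = 1.09e-115 from the deposited DESeq2 Wald test. DPP4+ cells thus held 60.8-fold more Dpp4 transcript than ICAM1+ cells and 7.49-fold more than CD142+ cells. The other populations differed as well, with 8.12-fold more in CD142+ than in ICAM1+ cells (log2 fold change of ICAM1+ against CD142+ -3.02 ± 0.15, adjusted p = 1.22e-81). Of the 7952 genes that averaged 100 or more over the libraries, Dpp4 had the 6th lowest log2 fold change in ICAM1+ against DPP4+ cells, the 37th lowest in CD142+ against DPP4+ cells and the 7th lowest in ICAM1+ against CD142+ cells. The CD142+ cells therefore lay between the others, and the order of all 3 populations was separated by more than the deposited errors.

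Fap (chr2:62500943-62574075, minus strand) was detected at a high level in all 3 populations and was highest in ICAM1+ cells. Its fitted level was 1068 in DPP4+, 1585 in ICAM1+ and 1247 in CD142+ cells. It was 1.48-fold higher in ICAM1+ than in DPP4+ cells (log2 fold change 0.57 ± 0.14, adjusted p = 0.000277). CD142+ cells lay between and were not separated from either neighbour. The log2 fold change was 0.22 ± 0.14 against DPP4+ cells (interval -0.04 to 0.49, adjusted p = 0.299), and that of ICAM1+ against CD142+ cells was 0.35 ± 0.14 (interval 0.08 to 0.61, adjusted p = 0.0978). The fitted levels of Fap thus ran in the reverse order to those of Dpp4, over a far smaller range. For Fap only ICAM1+ and DPP4+ cells were separated by the test.

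Since the cells were sorted on DPP4, the ratio of Dpp4 to Fap follows the sort and is given as a description only. Dpp4 moved 60.8-fold between DPP4+ and ICAM1+ cells and Fap 1.48-fold, so nearly all of the change in the ratio came from Dpp4. Per kilobase of exon, Dpp4 stood at 865 and Fap at 189 in DPP4+ cells, at 14.2 and 280 in ICAM1+ cells, and at 115 and 220 in CD142+ cells. Dpp4 exceeded Fap 4.59-fold in DPP4+ cells, whereas Fap exceeded Dpp4 19.7-fold in ICAM1+ cells and 1.91-fold in CD142+ cells. Of the summed per-kilobase level of the 7 genes, Dpp4 held 69.7% in DPP4+, 2.88% in ICAM1+ and 21.3% in CD142+ cells. The share of Fap was 15.2%, 56.8% and 40.7%. These ratios depend on the length assigned to each gene. With the longest single transcript in place of all exons, Dpp4 exceeded Fap 2.79-fold in DPP4+ cells, and Fap exceeded Dpp4 32.4-fold in ICAM1+ and 3.14-fold in CD142+ cells.

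**Figure D2:**
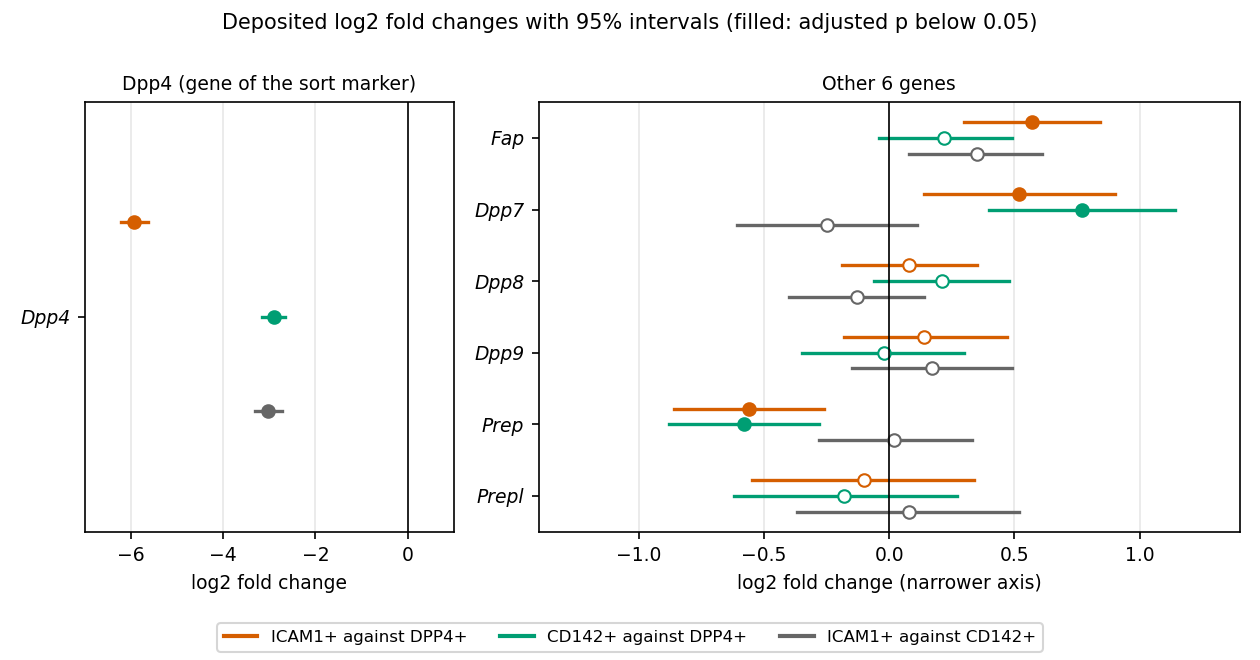
Deposited log2 fold changes of the 7 genes with 95% intervals, Dpp4 on the left and the other 6 genes on a narrower axis on the right, where filled points have an adjusted p below 0.05. Fap, Dpp7 and Prep are the genes beside Dpp4 with filled points, and no gene other than Dpp4 has one in ICAM1+ against CD142+ cells.

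Dpp7 (chr2:25352276-25356359, minus strand), which encodes the vesicular dipeptidyl peptidase also called DPP2, was lowest in DPP4+ cells. Its fitted level was 130 in DPP4+, 187 in ICAM1+ and 222 in CD142+ cells. The log2 fold change was 0.77 ± 0.19 in CD142+ against DPP4+ cells (1.7-fold, adjusted p = 0.000512) and 0.52 ± 0.19 in ICAM1+ against DPP4+ cells (1.43-fold, adjusted p = 0.0312). The difference between ICAM1+ and CD142+ cells did not pass (-0.25 ± 0.19, interval -0.61 to 0.11, adjusted p = 0.547).

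Prep (chr10:45067203-45167198, plus strand), the cytosolic oligopeptidase, was higher in DPP4+ cells than in both other populations, as Dpp4 was. Its fitted level was 391 in DPP4+, 266 in ICAM1+ and 262 in CD142+ cells. The log2 fold change against DPP4+ cells was -0.56 ± 0.15 in ICAM1+ cells (adjusted p = 0.00197) and -0.58 ± 0.15 in CD142+ cells (adjusted p = 0.00128), which places DPP4+ cells 1.47-fold and 1.5-fold higher. ICAM1+ and CD142+ cells were close to each other (0.02 ± 0.16, interval -0.28 to 0.33, adjusted p = 0.972).

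The cytosolic pair Dpp8 and Dpp9 passed in no comparison. Dpp8 (chr9:65032414-65082651, plus strand) had fitted levels of 537 in DPP4+, 568 in ICAM1+ and 620 in CD142+ cells. Its largest log2 fold change was 0.21 ± 0.14 in CD142+ against DPP4+ cells (interval -0.06 to 0.48, adjusted p = 0.362). Dpp9 (chr17:56186807-56218905, minus strand) had fitted levels of 387, 427 and 380, and its largest log2 fold change was 0.17 ± 0.16 in ICAM1+ against CD142+ cells (interval -0.15 to 0.49, adjusted p = 0.691). Every interval of both genes ended below an absolute log2 value of 0.5. Prepl (chr17:85063470-85090241, minus strand) had fitted levels of 137, 127 and 121 and the largest SE of the 7 members, 0.23 in each comparison. Its log2 fold change was -0.18 in CD142+ against DPP4+ cells (interval -0.62 to 0.27, adjusted p = 0.703), and it passed in no comparison.

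Fap had the highest per-kilobase level of the 7 in ICAM1+ and CD142+ cells and the second highest in DPP4+ cells, whereas the place of Dpp4 changed with the sort, from 1st in DPP4+ to 2nd in CD142+ and 7th in ICAM1+ cells (14.2, below Prepl at 22.8). Averaged over the 9 libraries, Dpp4 (332 per kilobase) lay above 95.7% of all genes and Fap (230) above 93.6%. Dpp7 (53.9), Dpp9 (50.5) and Dpp8 (41.9) lay above 75.3%, 74.1% and 70.4% of genes, and Prep (28) and Prepl (23) above 62% and 58.3%. The deposited values give no error for a difference between genes, so the order among the last 5 cannot be tested. It moved with the length used, since Dpp8 ranked 4th in DPP4+ cells per kilobase of all exons and 3rd per kilobase of its longest transcript.

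Dpp4 and Fap are neighbours on chromosome 2, with 88.7 kb between the gene bodies and 162 kb between the start sites, and with Gcg, the proglucagon gene, in the gap. Proglucagon gives rise to GLP-1, the best known DPP4 substrate. Gcg was barely detected, with fitted levels of 19.1 in DPP4+, 2.47 in ICAM1+ and 6.87 in CD142+ cells. It was lower in ICAM1+ than in DPP4+ cells (log2 fold change -2.95 ± 0.87, adjusted p = 0.00471), and its value in CD142+ against DPP4+ cells was -1.47 ± 0.75 (adjusted p = 0.182). Slc4a10, a bicarbonate transporter gene that ends 3.34 kb from Dpp4 and runs on the other strand, was also scarce and also lower outside DPP4+ cells, with fitted levels of 25.6, 1.76 and 4.25. Its log2 fold change was -3.86 ± 0.88 in ICAM1+ cells (adjusted p = 0.000102) and -2.59 ± 0.70 in CD142+ cells (adjusted p = 0.00205).

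On the other side of Fap the direction was mixed. Ifih1, which encodes the RNA sensor MDA5 and lies 21.7 kb from Fap, was higher outside DPP4+ cells, with fitted levels of 83.7, 220 and 149. Its log2 fold change was 1.39 ± 0.27 in ICAM1+ cells (adjusted p = 4.53e-06) and 0.84 ± 0.27 in CD142+ cells (adjusted p = 0.0155). Gca, the grancalcin gene, was at 12.7, 4.96 and 5.72 and passed in no comparison (adjusted p = 0.22 in ICAM1+ against DPP4+ cells). Kcnh7, a potassium channel gene, was at 1.67, 3.46 and 2.39 (adjusted p = 0.68 in that comparison). The annotation names 84 protein-coding genes within 250 kb of any member, of which 75 have a row, with Dpp4 and Fap counted as neighbours of each other. In ICAM1+ against DPP4+ cells 22 of 72 with an adjusted p passed (30.6%, 11 in each direction), in CD142+ against DPP4+ cells 11 of 70 (15.7%) and in ICAM1+ against CD142+ cells 7 of 65 (10.8%). These shares lie near those of all genes given above.

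**Figure D3:**
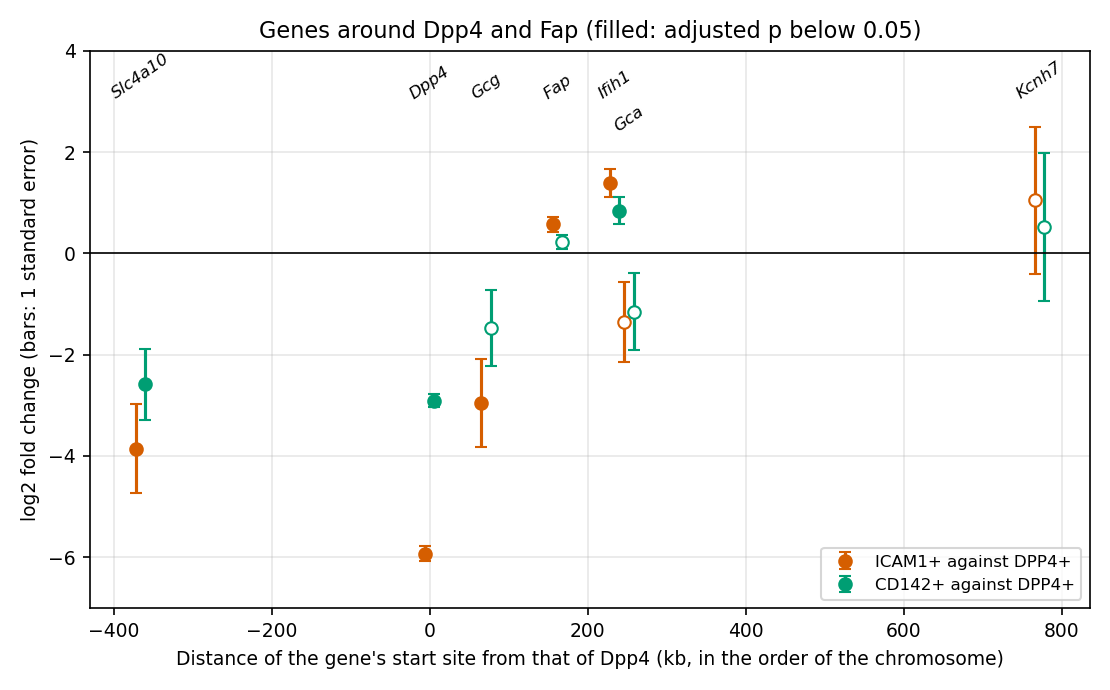
Deposited log2 fold change (bars, 1 SE) of the genes around Dpp4 and Fap against the distance of their start sites from that of Dpp4 in kb, for ICAM1+ and CD142+ cells each against DPP4+ cells, with filled points at an adjusted p below 0.05. Slc4a10, Dpp4, Gcg and Gca lie below 0, and Fap, Ifih1 and Kcnh7 above it. The bars of the scarce genes Slc4a10, Gcg, Gca and Kcnh7 are wide.

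Other prolyl and dipeptidyl peptidases differed between the populations in both directions. Of 14 listed genes, 12 had a row. In ICAM1+ against DPP4+ cells 3 were higher and 5 lower, beside 12.4% and 12.0% of all genes tested. In CD142+ against DPP4+ cells 2 were higher and 3 lower, beside 10.1% and 8.91%. Between ICAM1+ and CD142+ cells 1 was higher and 2 lower in the former, beside 3.77% and 5.28%. Prcp, a lysosomal carboxypeptidase that removes a residue after proline, had fitted levels of 802 in DPP4+, 242 in ICAM1+ and 350 in CD142+ cells. Its log2 fold change was -1.73 ± 0.17 in ICAM1+ cells (adjusted p = 1.52e-21) and -1.20 ± 0.17 in CD142+ cells (adjusted p = 5.96e-11), each against DPP4+ cells. Xpnpep2, a membrane aminopeptidase that acts on a proline in second position, was lower in ICAM1+ cells than in both others (241, 110 and 189). Dpep1, a membrane dipeptidase, went the other way, with 431 in DPP4+, 1684 in ICAM1+ and 1780 in CD142+ cells (log2 fold changes 1.97 ± 0.15 and 2.05 ± 0.15). Ctsc, the lysosomal dipeptidyl peptidase cathepsin C, was highest in ICAM1+ cells (110, 290 and 165).

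Of the 20 further aminopeptidases and surface or secreted peptidases, 5 were higher and 5 lower in ICAM1+ than in DPP4+ cells. Over all genes tested, 12.4% were higher and 12.0% lower there. In CD142+ against DPP4+ cells 5 of the list were higher and 2 lower, beside 10.1% and 8.91% of all genes. Enpep, which trims angiotensin II, rose from 30.5 in DPP4+ to 333 in ICAM1+ and 113 in CD142+ cells (log2 fold changes 3.45 ± 0.29 and 1.88 ± 0.29). Mme, the membrane peptidase neprilysin, stood at 31, 211 and 104 (2.77 ± 0.27 and 1.75 ± 0.28). Mural cells also express Enpep. The summed mural markers followed the same order of populations, though Cspg4 (216, 291 and 302) did not. Their part in the Enpep difference was not tested. Cpe, a carboxypeptidase of the secretory pathway, was highest in CD142+ cells (1070, 2080 and 3237). Anpep, the membrane aminopeptidase N, was lower in ICAM1+ cells (1793, 919 and 1479, log2 fold change against DPP4+ cells -0.96 ± 0.12).

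Of 21 reported DPP4 substrates, 12 had a row. In ICAM1+ against DPP4+ cells 5 were higher and 2 lower, with a median log2 fold change of 0.68. In CD142+ against DPP4+ cells 5 were higher and 1 lower, with a median of 0.53. Between ICAM1+ and CD142+ cells 10 of the 12 had an adjusted p, and 1 was lower in ICAM1+ cells. Over all genes tested, 12.4% were higher and 12.0% lower in the first comparison. The shares were 10.1% and 8.91% in the second and 3.77% and 5.28% in the third. With 12 genes, some of them barely detected (Ccl22 at 2.06, 3.91 and 4.19), no direction is read from the list as a whole. The chemokine gene Cxcl12 had fitted levels of 1461 in DPP4+, 3195 in ICAM1+ and 2987 in CD142+ cells (log2 fold changes 1.13 ± 0.14 and 1.03 ± 0.14, adjusted p = 1.23e-14 and adjusted p = 2.81e-12). The chemokine genes Cxcl9 (153, 753 and 576) and Ccl11 (564, 2167 and 1955) were higher in both populations as well. Tac1, which encodes substance P, was highest in CD142+ cells (211, 303 and 707). The incretin and neuropeptide genes Gip, Npy, Pyy, Ghrh, Adcyap1 and Vip, and also Nppb, Epo and Il3, have no row in the tables used here.

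The receptors of these substrates differed in both directions. Of 18 listed, 12 had a row, with 4 higher and 3 lower in ICAM1+ than in DPP4+ cells (all genes, 12.4% and 12.0%). In CD142+ against DPP4+ cells 2 were higher and 3 lower (all genes, 10.1% and 8.91%). Ackr3, the scavenging receptor of CXCL12, was the one with the largest decrease among the named receptors, from 4460 in DPP4+ to 827 in ICAM1+ and 1067 in CD142+ cells (log2 fold changes -2.43 ± 0.13 and -2.06 ± 0.13). Adcyap1r1, the receptor of the neuropeptide PACAP, was higher outside DPP4+ cells (135, 543 and 411). The natriuretic peptide receptors Npr1 (1316, 1043 and 697) and Npr3 (63.2, 103 and 81.3) differed in opposite directions in ICAM1+ against DPP4+ cells, with adjusted p = 0.0409 and adjusted p = 0.0397.

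Of the reported binding partners of DPP4, 7 of 8 had a row. In ICAM1+ against DPP4+ cells 2 were higher and 2 lower (all genes, 12.4% and 12.0%). In CD142+ against DPP4+ cells 1 was higher and 1 lower (all genes, 10.1% and 8.91%). Fn1, the fibronectin gene, was higher in DPP4+ cells (159084 in DPP4+, 33614 in ICAM1+ and 57303 in CD142+ cells, log2 fold changes -2.24 ± 0.12 and -1.47 ± 0.12). Gpc3, a glypican that binds DPP4, was lower in ICAM1+ cells than in both others (16018, 7299 and 13237). Cav1, which encodes caveolin 1, was higher outside DPP4+ cells (910, 2001 and 1911). Ada, the adenosine deaminase gene, was at 118, 156 and 91.5 and passed only between ICAM1+ and CD142+ cells (0.77 ± 0.23, adjusted p = 0.0162).

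All 8 reported FAP substrates and partners had a row. In ICAM1+ against DPP4+ cells 4 were lower and none higher, where 12.0% and 12.4% of all genes tested were. In CD142+ against DPP4+ cells 1 was lower (8.91% of all genes). The collagen genes Col1a1 (508937, 307651 and 537730), Col3a1 (825373, 570134 and 850841) and Col1a2 (428605, 260295 and 468569) were lower in ICAM1+ cells than in both others. The log2 fold changes in ICAM1+ against DPP4+ cells ran from -0.73 ± 0.10 for Col1a1 to -0.53 ± 0.10 for Col3a1. Plaur, the urokinase receptor gene, was at 1386, 907 and 1009 (-0.61 ± 0.14 and -0.46 ± 0.14 against DPP4+ cells).

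Of 7 genes tied to DPP8 and DPP9 through the inflammasome, 5 had a row, and Nlrp1a and Nlrp1b have none in the tables used here. In each comparison with DPP4+ cells 2 were lower, Gsdmd and Il18, and none higher. Over all genes tested, 12.0% were lower in ICAM1+ and 8.91% in CD142+ than in DPP4+ cells. Gsdmd, the pore-forming gasdermin D, was at 197, 99.5 and 122 (log2 fold changes -0.99 ± 0.22 and -0.69 ± 0.22). Il18, a cytokine matured by caspase 1, was at 129 in DPP4+, 6.98 in ICAM1+ and 7.49 in CD142+ cells (adjusted p = 1.61e-17 and adjusted p = 1.47e-18) and was named after its values were seen, as its mean lay below the minimum of 50. Pycard, the adaptor ASC, was at 55.4, 65.3 and 56.9 and passed in no comparison.

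The last list holds 3 genes around the peptide that PREP releases from thymosin beta 4, and all 3 were lower in ICAM1+ and in CD142+ than in DPP4+ cells, where 12.0% and 8.91% of all genes were. A list of 3 genes, chosen with earlier results known, was not tested as a group. Tmsb4x, which encodes that precursor, was at 4085 in DPP4+, 2351 in ICAM1+ and 2654 in CD142+ cells (log2 fold changes -0.80 ± 0.13 and -0.62 ± 0.13). Its relative Tmsb10 was at 4682, 3013 and 3156 (-0.64 ± 0.11 and -0.57 ± 0.11). Ace, the enzyme that degrades the released peptide, was at 2864, 1852 and 1916 (-0.63 ± 0.15 and -0.58 ± 0.15). All 6 of these differences passed the test and none of the 3 between ICAM1+ and CD142+ cells did.

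**Figure D4:**
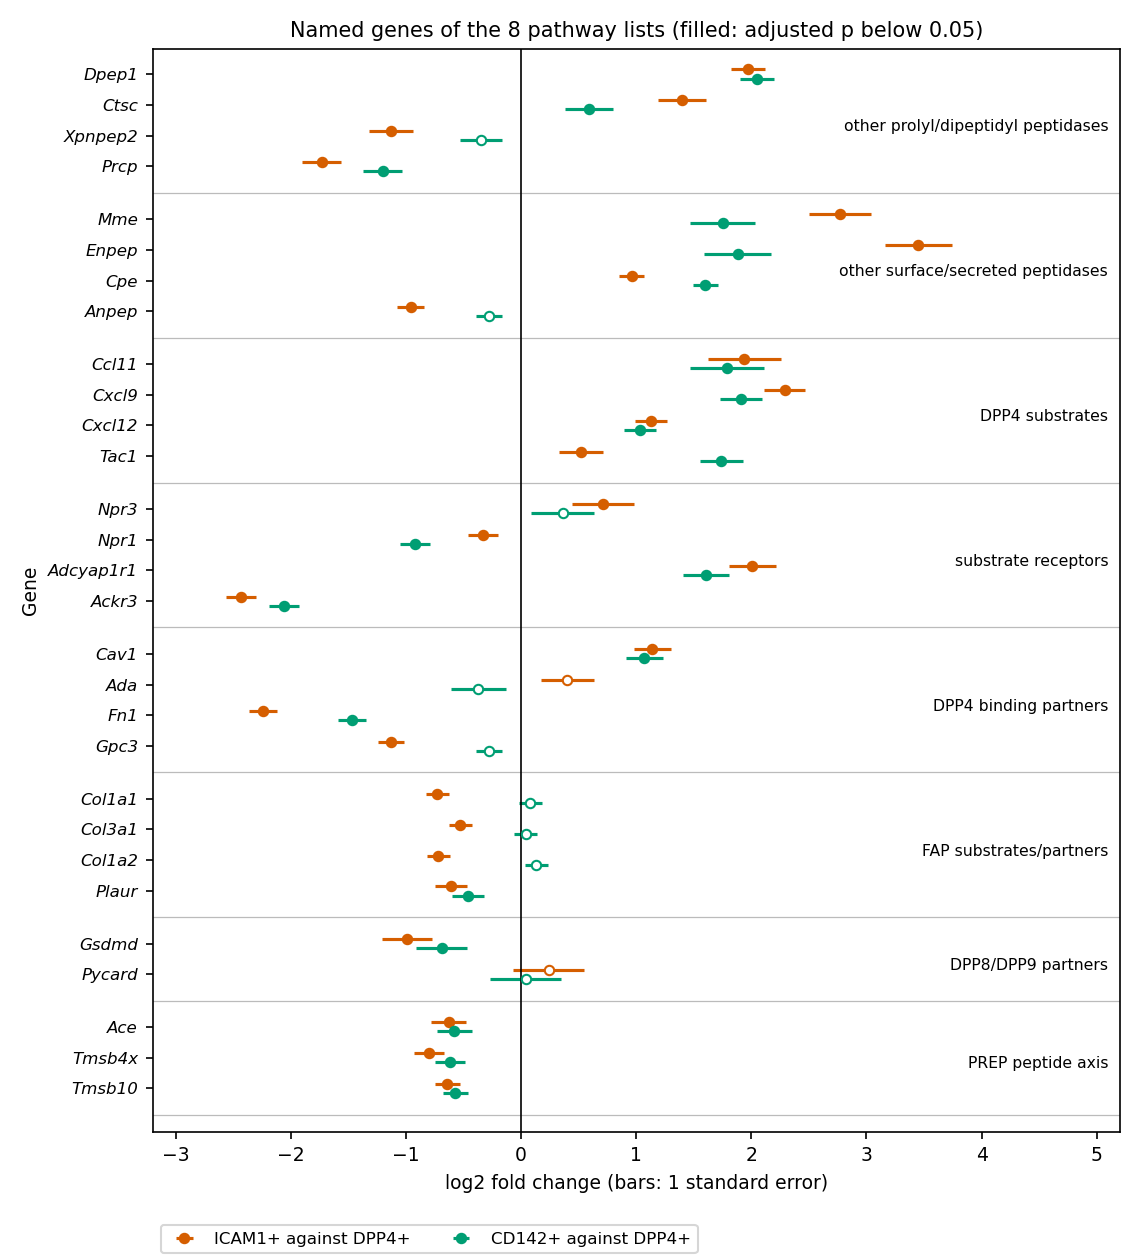
Deposited log2 fold changes (bars, 1 SE) of the named genes of the 8 pathway lists in ICAM1+ and CD142+ cells, each against DPP4+ cells, with filled points at an adjusted p below 0.05. In ICAM1+ cells Enpep (3.45) and Mme (2.77) lie farthest to the right and Ackr3 (-2.43) and Fn1 (-2.24) farthest to the left, in CD142+ cells Dpep1 (2.05) lies farthest to the right, and the 3 genes of the PREP peptide axis all lie left of 0.

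The genes whose pair of log2 fold changes against DPP4+ cells lay nearest to that of each changed member were sought among 7563 genes that averaged 100 or more. This likeness rests on 3 populations only, and many genes can share such a pair. The nearest to Dpp4 were Wnt2, a Wnt ligand gene (-5.55 ± 0.22 in ICAM1+ and -2.74 ± 0.16 in CD142+ cells, a distance of 0.41), and Tnfrsf11b, which encodes osteoprotegerin (-5.42 ± 0.35 and -3.01 ± 0.24, a distance of 0.52). Ackr2, Adgrg2 and Lgi3 followed at distances of 0.90 to 1.11. For the members with smaller changes, the distances were far below the SE of the genes named (0.12 to 0.39, the largest for Nab2). The deposited errors thus do not separate these genes from others at similar values. The nearest to Fap were Tmem159, Uhrf2, Pex5, Plekha2 and Mphosph8, all within 0.028. Those of Dpp7 were Pcdh18, Dusp6, Tmem64, Zfand2a and Pcdh10, within 0.031, and those of Prep were Slc7a1, Dnajc18, Nsfl1c, Sh2b1 and Nab2, within 0.017.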

How the data were processed

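Messenger RNA of 9 libraries, 3 per population as the labels name it, was sequenced from both ends after oligo(dT) selection. No step that marks the strand is described. The submitters' processing notes name STAR 2.5.2a, mm10, DESeq2 and R 3.5.1. For the annotation and the counting settings, the sources used here give nothing. What the authors deposited are 3 tables of pairwise DESeq2 results, 20659 rows each, and these columns of the authors' own comparisons are the values reported here, since the genes were defined on them. The mean is a signal deposited by the authors, counts over size factors averaged over libraries. The log2 fold changes, their SE, the Wald score, p-values and adjusted p-values were likewise fitted and deposited by the authors with DESeq2. In the tables, 4 rows are summary classes of the aligner (59.6% of the mean) and were left out. Depth per library is unknown, so precision is known from the deposited SE only.

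Identifiers were matched without version to GENCODE M21 (20618 of 20655 genes). Levels in each population were derived from the mean and the fold changes, which added up within 0.01 for all 7 members. Intervals are the estimate and its SE at 95%. The calculations used Python 3.11.15, pandas 2.3.3, scipy 1.17.1 and Biopython 1.88, and were tested on simulated data. Named genes were all members, up to 4 passing genes per list with a mean of at least 50 by the largest absolute log2 fold change (or, where fewer than 2 passed, the 2 with the highest mean), protein-coding neighbours within 250 kb of Dpp4 and Fap, and the 5 genes nearest in pattern to each changed member, leaving out predicted genes. The members and lists were chosen with earlier results of these data known. Alternatives were thresholds of 0.01 and 0.1, other sets of genes for the adjustment, a log2 fold change of at least 1 in size, a Wald test against 1, fold changes re-centred on the median gene, and another gene length.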

Additional observations from a re-analysis of the deposited data

How the results depend on the processing

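No paired analysis was possible because the deposited tables hold no values per library, and for the same reason no library could be left out in turn. With a minimum absolute log2 fold change of 1, or a Wald test against that value, 1 member passed in ICAM1+ against DPP4+ cells (4 without it) and 1 in CD142+ against DPP4+ cells (3 without it), Dpp4 in each case. At a threshold of 0.1, 2 members passed in ICAM1+ against CD142+ cells, Fap being added, and at 0.01 Dpp7 was lost in ICAM1+ against DPP4+ cells (adjusted p = 0.0312). Adjusting over all genes, adjusting over those that averaged 100 or more, and re-centring on the median of the latter (shifts of -0.067, -0.053 and -0.024), changed no call in 21 of 21 member values. With the longest transcript as the length, the ratio of Dpp4 to Fap was 2.79 in DPP4+, 0.0309 in ICAM1+ and 0.318 in CD142+ cells, where all exons gave 4.59, 0.0508 and 0.524.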

Other observations

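A few list members below the naming minimum of 50 also passed the test, and they are given as values chosen after they were seen. Dpp6, an inactive relative of DPP4 that binds potassium channels, had fitted levels of 39.5 in DPP4+, 5.79 in ICAM1+ and 9.97 in CD142+ cells (adjusted p = 5.46e-05 and adjusted p = 0.00277 against DPP4+ cells). Csf2, which encodes the DPP4 substrate GM-CSF, was at 63.9, 10.3 and 19.8 (adjusted p = 4.36e-05 and adjusted p = 0.00861), and its receptor gene Csf2ra was at 67.2, 29.2 and 32 (adjusted p = 0.00546 and adjusted p = 0.016). Epor, the erythropoietin receptor gene, went the other way, at 4.59, 34.1 and 17.4 (adjusted p = 3.94e-05 and adjusted p = 0.0168).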
